A study of Mus musculus with 6 samples.

Results

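The mouse collagen genes were examined in whole lung of Scnn1b-transgenic (Scnn1b-Tg) and wild-type mice. Members were the genes whose symbol has the form Col, number, a, number, measured by a probe set with exactly 1 symbol in the platform annotation, and this gave 44 genes of 19935 that could be tested. By the type of assembly they form, 11 are fibrillar collagens, 6 are the type IV collagens of basement membranes and 27 are other types. RNA came from 3 Scnn1b-Tg and 3 wild-type lung samples, all of the C57BL/6 background, and was hybridised to 6 Affymetrix whole-transcript arrays. The labels state no age, sex or batch. They also do not say whether each sample was a different mouse, so a p-value here reflects sample-to-sample spread that may be technical. The Scnn1b-Tg line is known as a model that overexpresses the β chain of the epithelial Na+ channel in airway epithelium from a club cell promoter, although the labels name no promoter. The study was concerned with emphysema, a loss of alveolar walls, and collagens are part of the scaffold of those walls.

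Collagens are triple helices of 3 α chains, each chain encoded by its own gene, and a helix can be built from like or unlike chains. Fibrillar collagens, chiefly types I and III in lung, are secreted by mesenchymal cells and laid down as tensile cables around airways, vessels and alveoli. Type IV collagen forms the sheet-like network of the basement membranes under epithelium and endothelium, and the remaining types coat fibrils, form microfilaments, anchor basement membranes or span cell membranes.

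No collagen gene passed the test between Scnn1b-Tg and wild-type lung. Of the 44 members 0 were called by limma at an adjusted p under 0.05, where over all genes the same rule called 0.00502% (1 gene, Scnn1b itself), and the members' adjusted p-values ran from 0.714 to 0.999. The log2 fold changes of the members (Scnn1b-Tg minus wild type) lay between -0.06 for Col6a4 and 0.30 for Col1a1, with a median of 0.050 beside 0.0052 over all genes tested. Positive values were found for 29 members (65.9%) and negative values for 15, while 53.2% of all genes were positive. With each array centred on its median, 26 members (59.1%) and 38.6% of all genes were positive. At an unadjusted p under 0.05, 6 members (13.6%) had higher values in Scnn1b-Tg, beside 3.96% of all genes, and 0 had lower values, beside 2.05%. These 6 were Col11a2, Col18a1, Col6a1, Col6a5, Col7a1 and Col8a1, and with centred arrays the count was 1 (Col8a1), beside 2.63% of all genes. In bulk RNA of this kind fewer cells of a type and less RNA per cell cannot be told apart.

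**Figure D1:**
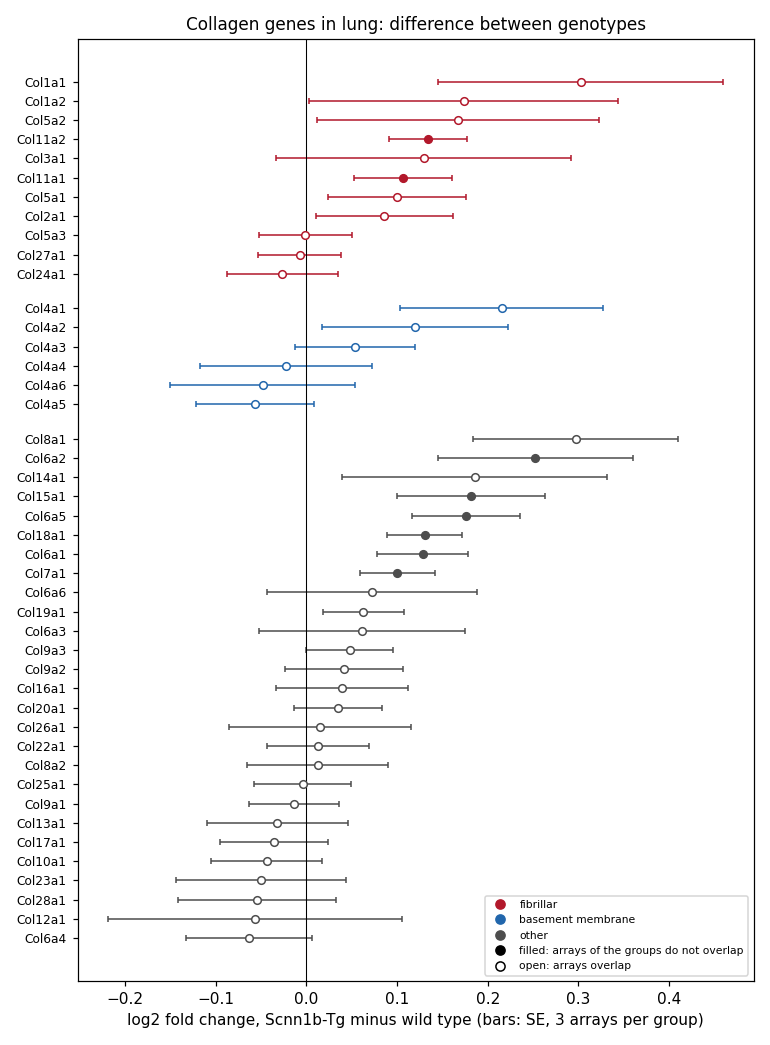
Log2 fold change (Scnn1b-Tg minus wild type) of the 44 collagen genes, grouped as fibrillar, basement membrane and other, with bars for the standard error of the limma fit over 3 arrays per group. Values run from -0.06 to 0.30. The 8 filled points (18.2%, beside 6.26% of all genes) are members whose Scnn1b-Tg arrays all lay above the wild-type arrays.

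The arrays themselves carried the genotype and the tissue that the labels state. Scnn1b had intensities of 1405, 1527 and 1333 in Scnn1b-Tg lungs, against 172, 108 and 139 in wild-type lungs, a log2 fold change of 3.37 ± 0.16 (SE, limma adjusted p = 0.00241). Lung epithelial genes were bright on all arrays, with 7730.1, 7656 and 8534 in Scnn1b-Tg lungs, against 8266, 8338 and 7241 in wild-type lungs for the surfactant protein gene Sftpc. The alveolar type 1 gene Ager gave 2160.1, 2294 and 2384 in Scnn1b-Tg lungs, against 2188, 2233 and 2362 in wild-type lungs. The median intensity was 47.6 to 48.5 across arrays, and their lowest values were 18.3 to 18.6. On the first principal component (34.0% of the variance) wild type replicate 2 stood apart at 16.3. On the second (22.6%) Scnn1b-Tg replicate 3 did at 13.3. For some collagen genes values without these arrays are therefore also given. Where none is given, a value may also depend on these arrays.

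Among the fibrillar collagens 8 of 11 members had positive log2 fold changes, with a median of 0.11. Col1a1 and Col1a2 encode the 2 kinds of chain in type I collagen, the main tensile fibre of the lung. Col1a1 had intensities of 1268, 1306 and 1305 in Scnn1b-Tg lungs, against 1312, 813 and 1079.8 in wild-type lungs. The 3 Scnn1b-Tg arrays lay close together, wild type replicate 2 lay far below them, and wild type replicate 1 lay just above them, so the groups overlapped. The log2 fold change of 0.30 ± 0.16 (SE) had an adjusted p of 0.873 in limma. For Col1a2 the arrays gave 1786, 1683 and 1639 in Scnn1b-Tg lungs, against 2039, 1299 and 1297 in wild-type lungs. Here wild type replicate 1 was the highest of all arrays, and the other 2 wild-type arrays were the lowest. The log2 fold change of Col1a2 was 0.17 ± 0.17, with an adjusted p of 0.957.

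Col3a1 encodes the single chain of type III collagen, which copolymerises with type I. Its intensities were 1621, 1617 and 1315 in Scnn1b-Tg lungs, against 1768, 1159 and 1285 in wild-type lungs, again highest on wild type replicate 1 and lowest on wild type replicate 2, with the Scnn1b-Tg arrays between them. The log2 fold change was 0.13 ± 0.16 (SE, adjusted p = 0.978 in limma), and leaving out wild type replicate 2 gave 0.0031. Col5a2, a chain of type V collagen, which starts and limits the growth of type I fibrils, had 280.1, 267 and 261 in Scnn1b-Tg lungs, against 315, 206 and 212 in wild-type lungs. Its order of arrays was like that of Col1a2, and its log2 fold change was 0.17 ± 0.16 (adjusted p = 0.947). The partner chain Col5a1 gave 0.10 ± 0.076 and the remaining type V chain, Col5a3, -0.0011 ± 0.052. Without wild type replicate 1 the log2 fold changes of Col1a1, Col1a2, Col3a1 and Col5a2 were 0.46, 0.39, 0.31 and 0.36, with adjusted p-values between 0.216 and 0.519. Without wild type replicate 2 Col1a1, Col1a2 and Col5a2 gave 0.12, 0.065 and 0.058.

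**Figure D2:**
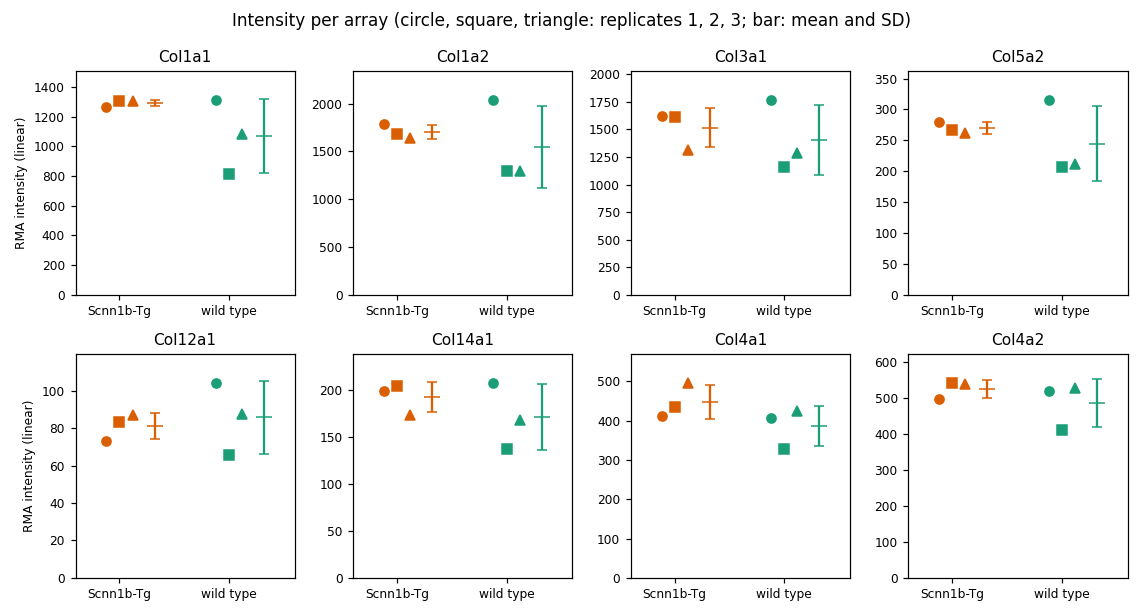
RMA intensity on a linear scale for 8 collagen genes, with the Scnn1b-Tg arrays left of the wild-type arrays, 1 symbol per replicate and the mean ± SD of 3 arrays beside them. For Col1a1, Col1a2, Col3a1, Col5a2, Col12a1 and Col14a1 wild type replicate 1 (circle) lies above all 3 Scnn1b-Tg arrays and wild type replicate 2 (square) below them.

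The starts of Col1a2 and Col3a1 are shown because both are among the fibrillar genes with the widest wild-type ranges, and were taken from RefSeq (GRCm38.p6) as 250 bases before to 50 bases after the annotated start. The Col1a2 window is chr6:4505368-4505667 on the plus strand and the Col3a1 window chr1:45311288-45311587 on the plus strand. Capitals mark CCAAT, the sequence that the factor NF-Y is known to bind, or its reverse complement. They also mark TATAAA, known as the TATA box, and both were searched on both strands.
Col1a2: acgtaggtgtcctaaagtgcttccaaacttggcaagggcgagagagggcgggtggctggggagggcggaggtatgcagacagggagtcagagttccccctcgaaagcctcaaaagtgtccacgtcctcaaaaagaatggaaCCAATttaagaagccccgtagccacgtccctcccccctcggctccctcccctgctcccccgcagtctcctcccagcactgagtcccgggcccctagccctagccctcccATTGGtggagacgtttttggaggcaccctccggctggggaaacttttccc
Col3a1: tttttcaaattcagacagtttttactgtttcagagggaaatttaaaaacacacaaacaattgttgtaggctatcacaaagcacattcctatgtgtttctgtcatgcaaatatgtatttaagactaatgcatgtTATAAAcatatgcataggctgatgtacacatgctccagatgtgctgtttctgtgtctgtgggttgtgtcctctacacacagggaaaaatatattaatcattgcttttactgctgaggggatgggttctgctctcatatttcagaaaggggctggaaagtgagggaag
The Col1a2 window held CCAAT 109 bases before the start (position -109, counted from the first base of the match) and a second match on the other strand, and it had a GC content of 61.0%. The Col3a1 window held 0 CCAAT matches and 1 TATAAA match at -117, with a GC content of 37.7%. Of 38 windows for 35 of the collagen genes 34.2% held CCAAT and 13.2% held TATAAA, beside 37.4% and 13.6% of all 32851 windows in the table. A match is a run of letters and not a measured binding site.

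Among the 11 fibrillar genes 2 (18.2%), both of type XI, had all Scnn1b-Tg arrays above the wild-type arrays, beside 6.26% of all genes. Col11a1 and Col11a2 encode chains of type XI collagen, which sits inside the cartilage fibrils of type II. Col11a2 had intensities of 61.0, 59.7 and 58.0 in Scnn1b-Tg lungs, against 53.6, 55.5 and 53.8 in wild-type lungs, with all Scnn1b-Tg arrays above all wild-type arrays. Its log2 fold change was 0.13 ± 0.043 (SE), the smallest p of the fibrillar class, and its limma adjusted p was 0.728. Col11a1 gave 44.3, 47.0 and 41.8 in Scnn1b-Tg lungs, against 40.6, 41.7 and 41.2 in wild-type lungs, a log2 fold change of 0.11 ± 0.054 (adjusted p = 0.870), and its lowest Scnn1b-Tg array lay 0.12 above the highest wild-type array on the intensity scale. Col2a1, the type II chain itself, gave 71.1, 83.6 and 72.2 in Scnn1b-Tg lungs, against 74.7, 71.4 and 67.3 in wild-type lungs with overlap and a log2 fold change of 0.086 ± 0.076. The 10 cartilage markers measured had a median log2 fold change of -0.026 and 4 positive values, with Chad at -0.25 ± 0.13 and Comp at -0.077 ± 0.074 as the smallest p-values. Their summed intensity was 362 to 395 in Scnn1b-Tg and 390.2 to 403 in wild type. The dimmest of these markers averaged 23.7, where the lowest values of the arrays were 18.3 to 18.6. The part of these markers in the type XI values was not tested. The remaining fibrillar genes, Col24a1 and Col27a1, gave -0.027 ± 0.061 and -0.0074 ± 0.046.

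Of the 6 type IV genes 3 had positive and 3 negative log2 fold changes, with a median of 0.015 that was -0.010 with centred arrays. Groups without overlap were found for 0 of the 6, beside 6.26% of all genes higher and 4.41% lower in Scnn1b-Tg. Col4a1 and Col4a2 encode the 2 kinds of chain in the type IV network found in nearly every basement membrane. Intensities of Col4a1 were 412, 435 and 495 in Scnn1b-Tg lungs, against 407, 328 and 425 in wild-type lungs, and 1 wild-type array, replicate 2, lay well below the rest. The log2 fold change was 0.22 ± 0.11 (SE, adjusted p = 0.877 in limma), and it was 0.10 without wild type replicate 2. For Col4a2 the arrays gave 495, 540.4 and 538 in Scnn1b-Tg lungs, against 519.9, 409 and 528 in wild-type lungs, in which the same array was lowest. Its log2 fold change was 0.12 ± 0.10 (adjusted p = 0.941), and leaving out wild type replicate 2 gave 0.0013.

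Col4a1 and Col4a2 lie head to head, and their RefSeq start windows, shown because the 2 genes had the same lowest array and nearly the same spread, share 78 bases. The Col4a1 window is chr8:11312777-11313076 on the minus strand and the Col4a2 window chr8:11312555-11312854 on the plus strand (GRCm38.p6), and capitals mark the shared stretch, which each window reads from its own strand.
Col4a1: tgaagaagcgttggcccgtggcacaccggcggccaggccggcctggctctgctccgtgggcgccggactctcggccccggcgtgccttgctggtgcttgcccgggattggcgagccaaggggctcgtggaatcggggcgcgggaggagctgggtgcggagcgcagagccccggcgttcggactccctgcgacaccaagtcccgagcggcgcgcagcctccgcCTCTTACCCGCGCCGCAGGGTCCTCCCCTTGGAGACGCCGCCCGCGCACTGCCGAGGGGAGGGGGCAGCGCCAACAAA
Col4a2: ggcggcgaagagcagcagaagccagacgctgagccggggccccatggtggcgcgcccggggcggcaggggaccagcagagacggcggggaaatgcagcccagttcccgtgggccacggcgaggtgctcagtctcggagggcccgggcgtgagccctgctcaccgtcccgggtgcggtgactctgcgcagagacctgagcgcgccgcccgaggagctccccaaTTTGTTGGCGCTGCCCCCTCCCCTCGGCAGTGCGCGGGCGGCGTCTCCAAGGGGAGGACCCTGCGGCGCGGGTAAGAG
The ranges of Col4a1 and Col4a2 over the 3 wild-type arrays were 0.37 and 0.37 on the log2 scale. GC content was 74.0% in the first window and 73.7% in the second. GGGCGG, the GC box that Sp1 is known to bind, was searched on both strands and found in both windows. The Col4a1 match lies in the shared stretch, so the same bases are also a match in the Col4a2 window. GGGCGG was found in 60.5% of collagen windows and in 35.7% of all windows. The median GC content of these windows was 59.85% and 52.7%, and its part in the matches was not tested.

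The chains of the second type IV network, which is known from alveolar and glomerular basement membranes, showed smaller differences. Col4a3 gave 190.1, 184 and 208 in Scnn1b-Tg lungs, against 178, 183 and 199.6 in wild-type lungs, a log2 fold change of 0.053 ± 0.066 (SE). Col4a4 gave 166, 162 and 165 in Scnn1b-Tg lungs, against 150.4, 158 and 195 in wild-type lungs, and only wild type replicate 3 lay away from the others. Its log2 fold change was -0.023 ± 0.095. Col4a5 gave 154, 146 and 135 in Scnn1b-Tg lungs, against 142, 156 and 155 in wild-type lungs, with a log2 fold change of -0.056 ± 0.065 (adjusted p = 0.975 in limma). Col4a6, which pairs with the α5 chain, gave -0.048 ± 0.10, and its Scnn1b-Tg arrays ran from 40.7 to 52.3 and its wild-type arrays from 44.2 to 52.1.

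Type VI collagen forms beaded microfilaments near the cell surface from an α1, an α2 and 1 further chain. Of its 6 genes 3 (50%) had all Scnn1b-Tg arrays above the wild-type arrays, beside 6.26% of all genes. Positive log2 fold changes were found for 5 of the 6, with a median of 0.10. Col6a1 had intensities of 429.7, 424 and 424 in Scnn1b-Tg lungs, against 403, 368 and 399 in wild-type lungs. The 3 Scnn1b-Tg arrays lay close together and above all wild-type arrays, and the log2 fold change was 0.13 ± 0.050 (SE, adjusted p = 0.784 in limma). Col6a2 gave 256, 261 and 336 in Scnn1b-Tg lungs, against 245, 223 and 242 in wild-type lungs, and Scnn1b-Tg replicate 3 lay well above the other arrays. The log2 fold change of Col6a2 was 0.25 ± 0.11 (adjusted p = 0.822), and 0.13 without that array. The common further chain, Col6a3, gave 330.0, 339 and 354 in Scnn1b-Tg lungs, against 369.8, 271 and 348 in wild-type lungs with overlap, lowest and highest both in wild type, and a log2 fold change of 0.061 ± 0.11.

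Alternatives to that chain were dim. Col6a5 gave 57.2, 50.9 and 52.2 in Scnn1b-Tg lungs, against 45.2, 48.7 and 47.9 in wild-type lungs, without overlap, and a log2 fold change of 0.18 ± 0.060 (SE, adjusted p = 0.757 in limma). A second, dimmer probe set of Col6a5 averaged 37.7 in Scnn1b-Tg and 31.0 in wild type. Its log2 fold change was 0.29 ± 0.084, with a limma adjusted p of 0.642 among the 21780 probe sets with 1 symbol. Col6a6 gave 73.2, 69.8 and 72.4 in Scnn1b-Tg lungs, against 59.1, 82.6 and 65.2 in wild-type lungs, with a wild-type range wider than the Scnn1b-Tg range, and a log2 fold change of 0.072 ± 0.12; its second probe set gave 0.015 ± 0.045. Col6a4 was the lowest of all members, at -0.063 ± 0.069.

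Types XV and XVIII are related collagens of basement membrane zones. Col18a1, whose C-terminal fragment is the angiogenesis inhibitor endostatin, had intensities of 80.7, 82.5 and 79.0 in Scnn1b-Tg lungs, against 73.2, 74.8 and 73.3 in wild-type lungs. All Scnn1b-Tg arrays lay above all wild-type arrays, and the log2 fold change of 0.13 ± 0.041 (SE) had the smallest p of all members, with a limma adjusted p of 0.714. Col15a1, its closest relative, gave 66.7, 64.2 and 61.9 in Scnn1b-Tg lungs, against 61.3, 50.03 and 59.2 in wild-type lungs, also without overlap but by 0.57 units, with a log2 fold change of 0.18 ± 0.082 (adjusted p = 0.838) and 0.092 without wild type replicate 2. Col7a1, the anchoring fibril collagen that ties epithelial basement membrane to the stroma, gave 66.3, 67.9 and 65.2 in Scnn1b-Tg lungs, against 61.2, 63.0 and 61.6 in wild-type lungs, and its log2 fold change was 0.10 ± 0.042 (adjusted p = 0.818).

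In all, the Scnn1b-Tg arrays lay wholly above the wild-type arrays for 8 of the 44 members (18.2%), beside 6.26% of all genes, and wholly below for 0, beside 4.41%. With centred arrays the count was 5 (11.4%), beside 3.81% of all genes. The 5 were Col11a2, Col6a1, Col6a2, Col6a5 and Col18a1. With quantile normalization the count was 6 (13.6%), beside 5.49% of all genes. Col7a1, Col15a1 and Col18a1 then overlapped, while 5 of the 8 remained. For 6 of the 8 the mean intensity over the 6 arrays was under 100, the exceptions being Col6a1 and Col6a2, and their differences were of a few intensity units.

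**Figure D3:**
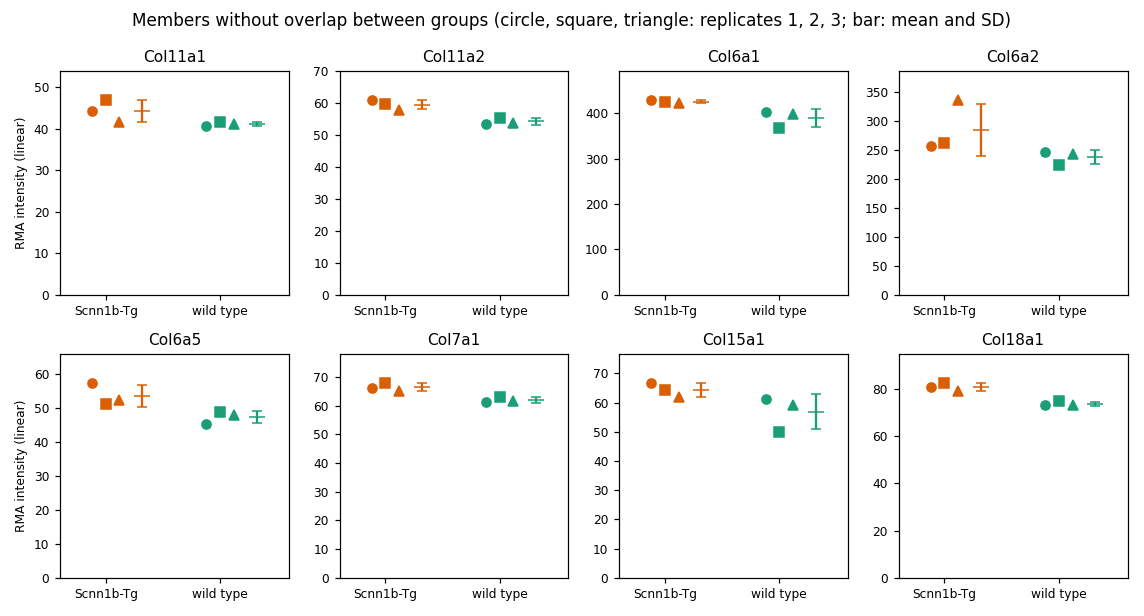
RMA intensity on a linear scale for the 8 collagen genes whose Scnn1b-Tg arrays all lay above the wild-type arrays, with Scnn1b-Tg on the left, 1 symbol per replicate and the mean ± SD of 3 arrays. The gap is 0.12 units for Col11a1 and 0.57 units for Col15a1, and on Col6a2 Scnn1b-Tg replicate 3 (triangle) stands at 336 above the other arrays.

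Collagens that form hexagonal or related networks include Col8a1, a type VIII chain known from vessel walls. Its intensities were 50.9, 51.0 and 49.6 in Scnn1b-Tg lungs, against 36.4, 49.8 and 38.3 in wild-type lungs. The Scnn1b-Tg arrays and wild type replicate 2 lay together near 50, and wild type replicates 1 and 3 lay below them. The log2 fold change was 0.30 ± 0.11 (SE, adjusted p = 0.773 in limma), and it was 0.44 without wild type replicate 2. The second type VIII chain, Col8a2, gave 0.012 ± 0.077, and Col10a1, the collagen of hypertrophic cartilage, gave -0.044 ± 0.061.

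Fibril-associated collagens coat fibrils or link them to other matrix, and 7 of 9 had positive values with a median of 0.039. Col12a1 and Col14a1, which bind type I fibrils, varied most. Col12a1 gave 73.5, 83.4 and 87.3 in Scnn1b-Tg lungs, against 104, 65.7 and 87.8 in wild-type lungs, with its highest and lowest arrays both in wild type, and a log2 fold change of -0.057 ± 0.16 (SE, adjusted p = 0.995 in limma) that was 0.096 without wild type replicate 1. Col14a1 gave 199, 204 and 174 in Scnn1b-Tg lungs, against 207, 137 and 168 in wild-type lungs, in the same order among the wild-type arrays, and a log2 fold change of 0.19 ± 0.15. The type IX genes of cartilage, Col9a1, Col9a2 and Col9a3, gave -0.014, 0.042 and 0.048. Col16a1, Col19a1, Col20a1 and Col22a1 lay between 0.013 and 0.063.

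All 4 membrane-spanning collagens had negative values, between -0.050 and -0.0043. Col13a1, found at cell adhesion sites, gave 126, 130.1 and 108 in Scnn1b-Tg lungs, against 121, 130.1 and 120.0 in wild-type lungs, and Scnn1b-Tg replicate 3 was the lowest array. Col17a1, part of the hemidesmosomes of basal epithelial cells, gave -0.036 ± 0.059 and Col23a1 -0.050 ± 0.094. Col25a1 was the nearest to 0. The last 2 members, Col26a1 and Col28a1, gave 0.015 and -0.054, and Col26a1 had the widest range among Scnn1b-Tg arrays of any member, at 0.40 on the log2 scale.

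For most members, as for most genes, the wild-type arrays differed among themselves by more than the genotypes did. The range of the 3 wild-type arrays was wider than the size of the log2 fold change for 38 of 44 members (86.4%), and the same held for 85.2% of all genes. The widest wild-type ranges belonged to Col1a1 (0.69), Col12a1 (0.67), Col1a2 (0.65), Col5a2 (0.61) and Col3a1 (0.61), all on the log2 scale. Over the Scnn1b-Tg arrays these genes ranged by 0.043, 0.25, 0.12, 0.10 and 0.30. Of all 44 members, 25 (56.8%) had a narrower range in Scnn1b-Tg than in wild type, beside 53.3% of all genes, with median ranges of 0.12 in Scnn1b-Tg and 0.16 in wild type. Of the 14 members with a mean intensity of 100 or more, 10 (71.4%) did, beside 51.8% of all genes that bright. That mark was chosen after the values were seen. Median ranges of the 14 were 0.15 in Scnn1b-Tg and 0.37 in wild type. Over all genes of that brightness the median was 0.17 in both. Of the 30 dimmer members 15 (50%) had a narrower range in Scnn1b-Tg, beside 53.9% of all genes that dim.

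**Figure D4:**
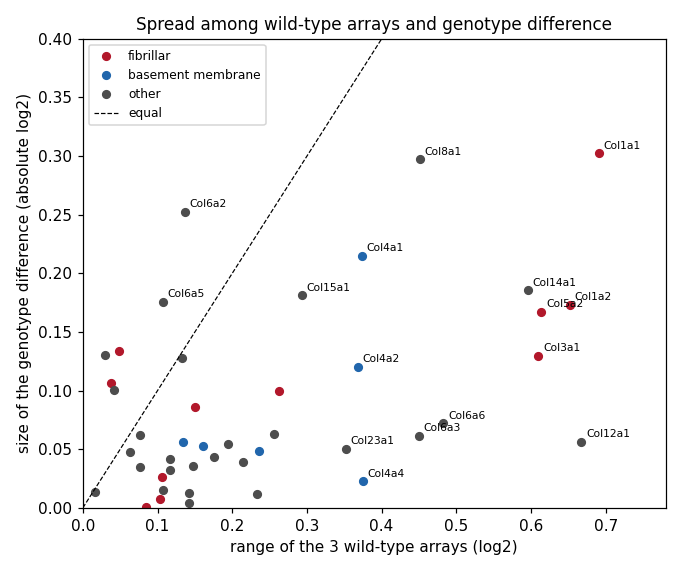
Size of the genotype difference (absolute log2 fold change) against the range of the 3 wild-type arrays (log2), 1 point per collagen gene, coloured by class, with the line of equal values dashed. Of the 44 points 38 lie right of the line (86.4%, beside 85.2% of all genes). Col1a1, Col12a1, Col1a2, Col5a2, Col3a1 and Col14a1 lie farthest right, at ranges of 0.60 to 0.69.

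Wild-type arrays below all 3 Scnn1b-Tg arrays were frequent on each replicate, with 17 members (38.6%) on replicate 1, 22 (50%) on replicate 2 and 23 (52.3%) on replicate 3, beside 27.1%, 30.8% and 27.2% of all genes. For the 14 brighter members the count on replicate 2 was 12 (85.7%), beside 36.1% of all genes of that brightness. The median deviation of that array from the mean of the 6 arrays was -0.30 over the 14 and 0.0074 over the 30 dimmer members. Wild type replicate 1 was above all 3 Scnn1b-Tg arrays for 9 members (20.5%), beside 22.2% of all genes. Of these 6 were among the brighter 14 (42.9%, beside 29.5% of genes that bright), namely Col1a1, Col1a2, Col3a1, Col5a2, Col6a3 and Col14a1.

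**Figure D5:**
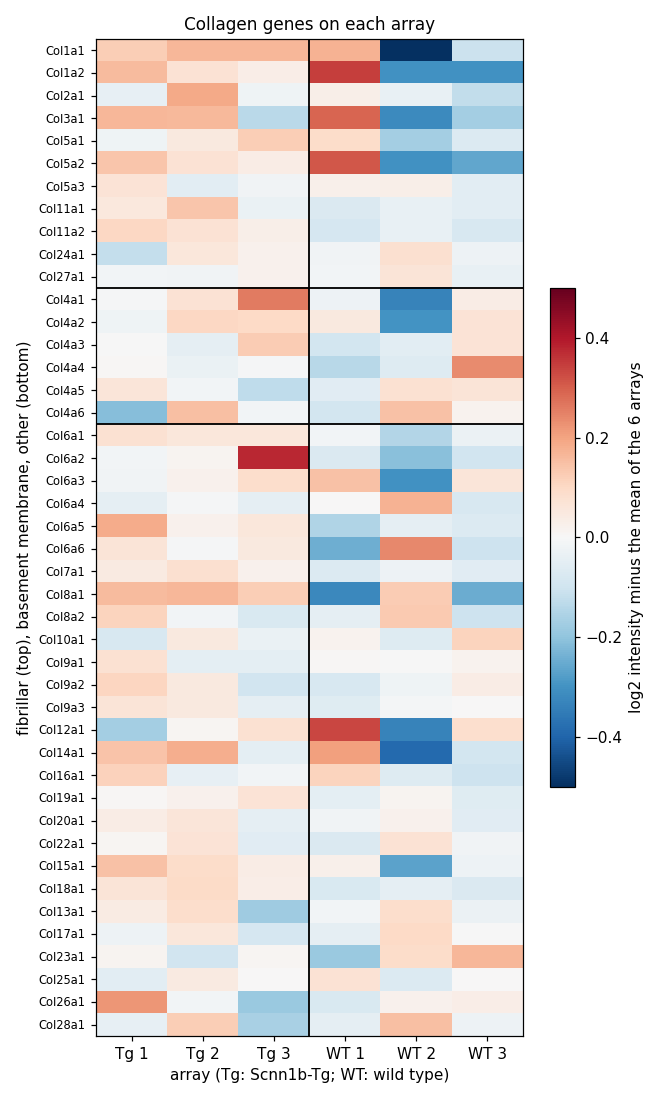
Log2 intensity of the 44 collagen genes on each array minus the mean of the 6 arrays, with the 3 Scnn1b-Tg arrays left of the 3 wild-type arrays and lines between the fibrillar, basement membrane and other classes. The columns of wild type replicates 1 and 2 differ most, with Col1a1, Col1a2, Col3a1, Col5a2, Col12a1 and Col14a1 high on replicate 1 and low on replicate 2, and the Scnn1b-Tg columns are paler.

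Marker genes of other cell types were read on the same arrays. The 11 smooth muscle and pericyte markers had median deviations of -0.040, 0.080 and 0.088 on the Scnn1b-Tg arrays and 0.15, -0.24 and -0.048 on wild type replicates 1, 2 and 3, so they were also highest on wild type replicate 1 and lowest on wild type replicate 2. Their summed intensity was 2335 to 2594 in Scnn1b-Tg and 1836 to 2747 in wild type. Positive log2 fold changes were found for 7 of 11, and the dimmest averaged 44.4. Rgs5, a pericyte gene, gave 0.31 ± 0.13 (SE, adjusted p = 0.817 in limma) and Notch3 0.16 ± 0.080. The 12 fibroblast markers summed to 6674 to 7648 in Scnn1b-Tg, and to 6580.0, 8688 and 7774 on wild type replicates 1, 2 and 3. This order rested on Inmt, a methyltransferase gene bright in lung. Without Inmt, a choice made after seeing the values, the other 11 summed to 4583 to 4690.3 in Scnn1b-Tg. Their sums were 4761, 4467 and 4582 on wild type replicates 1, 2 and 3. The median deviations of all 12 did not follow the order of the smooth muscle markers. They were -0.039, 0.013 and -0.031 on wild type replicates 1, 2 and 3. Among the wild-type arrays 6 of the 12 fibroblast markers were highest on replicate 2 and 3 on replicate 1. The dimmest of them averaged 37.0, and 6 of 12 had positive log2 fold changes, with Pdgfra at -0.12 ± 0.059 and Thy1 at 0.12 ± 0.076. The part of either cell type in the collagen values was not tested.

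Heart muscle markers, which mark tissue outside the alveolar wall, had 7 of 8 negative log2 fold changes, with a summed intensity of 907 to 1200.4 in Scnn1b-Tg and 1233 to 1516 in wild type. Myl4, an atrial myosin light chain, gave -0.29 ± 0.068 (SE, adjusted p = 0.424 in limma) and Myh6 -0.42 ± 0.11 (adjusted p = 0.561). Macrophage markers had 7 of 8 positive values, with sums of 5726 to 7092 in Scnn1b-Tg and 4923 to 5680.4 in wild type. Chil3, a chitinase-like protein of macrophages, gave 1.34 ± 0.19 (SE, adjusted p = 0.146 in limma) and Cd68 0.33 ± 0.044 (adjusted p = 0.139). Lung epithelial markers had 4 of 8 positive values and sums of 21597 to 22847 in Scnn1b-Tg and 22146 to 24721 in wild type. Of these the club cell genes Cyp2f2 and Scgb1a1 gave -0.48 ± 0.080 (adjusted p = 0.205) and -0.31 ± 0.069 (adjusted p = 0.398). Mesothelial markers had 4 of 6 positive values and sums of 1157 to 1242 in Scnn1b-Tg and 1078 to 1218 in wild type, with Lrrn4 at 0.25 ± 0.091 and Msln at 0.20 ± 0.11. Endothelial markers had 1 of 8 and sums of 5351 to 5988 in Scnn1b-Tg and 5737 to 6043 in wild type, with Tek at -0.10 ± 0.052 and Kdr at -0.12 ± 0.061. Fat cell markers had 3 of 5 and sums of 172 to 224 in Scnn1b-Tg and 172 to 185 in wild type, with Plin1 at 0.11 ± 0.084 and Pck1 at 0.15 ± 0.12. Scnn1b-Tg replicate 3 had the highest fat cell sum, and without it Plin1 gave 0.016 and Pck1 0.0035. The lowest values of the arrays were 18.3 to 18.6, and the dimmest heart muscle and fat cell markers averaged 27.9 and 25.3. The dimmest mesothelial, macrophage, endothelial and lung epithelial markers averaged 41.3, 52.0, 197 and 248. Whether any of these cell types bears on the collagen values was not tested.

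Neighbouring collagen genes could be set side by side, since 15 of the 44 lie next to another member among protein-coding genes in RefSeq (GRCm38.p6), in 8 pairs. Col3a1 and Col5a2 are neighbours, with log2 fold changes of 0.13 and 0.17 and wild-type ranges of 0.61 and 0.61. Col6a1 and Col6a2 gave 0.13 and 0.25, with wild-type ranges of 0.13 and 0.14. Neighbours did not always share their values. Col4a3 and Col4a4, also head to head, gave 0.053 and -0.023 with wild-type ranges of 0.16 and 0.38, and Col6a6 and Col6a5 gave ranges of 0.48 and 0.11.

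Genes that make, process and bind collagen likewise gave 0 calls at an adjusted p under 0.05. Of 17 genes for hydroxylation and folding of the chains, 10 had positive values with a median log2 fold change of 0.011. Colgalt2, which adds galactose to hydroxylysine, had the smallest p at -0.19 ± 0.059 (SE, adjusted p = 0.714 in limma), with 64.5, 66.2 and 66.2 in Scnn1b-Tg lungs, against 69.6, 79.9 and 75.01 in wild-type lungs, and all Scnn1b-Tg arrays lay below wild type. Plod3, a lysyl hydroxylase, gave 0.13 ± 0.051 (adjusted p = 0.811). Of 11 genes for procollagen processing and cross-linking 8 were positive, with a median of 0.025. The lysyl oxidase gene Lox, whose enzyme cross-links collagen and elastin, gave 242, 289 and 252 in Scnn1b-Tg lungs, against 244, 201 and 253 in wild-type lungs with overlap and a log2 fold change of 0.17 ± 0.11, and the procollagen enhancer gene Pcolce2 gave -0.21 ± 0.14.

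Of 13 genes for proteins that regulate fibrils, 6 were positive, with a median of -0.032. Podn, a small leucine-rich protein that binds type I collagen, gave 0.12 ± 0.051 (SE), and Tnxb, tenascin X, -0.14 ± 0.065. Among 9 collagen receptor and uptake genes 3 were positive, with a median of -0.018, and the collagen receptor kinase Ddr1 gave 0.19 ± 0.10 and the uptake receptor Mrc2 0.18 ± 0.12. Without Scnn1b-Tg replicate 3 Ddr1 gave 0.087 and Mrc2 0.10, and without wild type replicate 2 Mrc2 gave 0.048. Other basement membrane genes had 13 of 15 positive values and a median of 0.11, with Lama1 at 0.12 ± 0.055 and Lamb3 at 0.17 ± 0.073. Their median deviation was -0.23 on wild type replicate 2, the array on which Col4a1 and Col4a2 were lowest too. Of 12 inducers of collagen transcription 9 were positive, with a median of 0.069, with the TGF-β receptor gene Tgfbr2 at 0.14 ± 0.063 and Pdgfb at 0.17 ± 0.11, and the adjusted p-values of these lists were 0.714 or more in limma.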

How the data were processed

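The authors deposited 1 table of intensity values per probe set on a linear scale, for which the submitters' processing notes name RMA without a version or settings. The linear scale was read from the values. RNA was extracted with Trizol and labelled by a sense-target method, per the labels' protocols. Of 28815 probe sets, 21780 had 1 symbol in the platform annotation, and the brightest was kept for each of 19935 genes. The collagen genes had 46 such probe sets, and Col6a5 and Col6a6 had more than 1. The log2 of each intensity was tested with limma 3.58.1 (R 4.3.3) with genotype as the only term, over all 6 arrays and two-sided. Benjamini-Hochberg adjustment covered the 19935 genes, with a call at an adjusted p under 0.05. The fit was tested on simulated data. A non-overlap means that all 3 arrays of 1 genotype lie beyond all 3 of the other.

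Genes were named by rule as members without overlap, those with the 3 smallest p-values of each class or the 5 widest wild-type ranges, and Col1a1, Col1a2, Col3a1, Col4a1 and Col4a2, and as the 2 smallest p-values of each other list. Values of the other members were added so that each of the 44 appears. The members and lists were chosen with earlier results of these data known, so lists are described by counts and medians beside all genes and were not tested. The number of arrays limits the precision. Among the listed symbols Adamts2, Cfd, Fkbp10, Gp6 and Loxl2 were not analysed here. Other settings tried were quantile normalization, arrays centred on their medians, the 6645 dimmest genes left out, other rules for several probe sets, other variance models, array weights, a replicate block, 16 subtracted from each intensity, and arrays left out.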

Additional observations from a re-analysis of the deposited data

How the results depend on the processing

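Under all 16 alternatives the count of collagen genes called remained 0, and between 26 and 36 members had positive log2 fold changes, beside 29. Over these alternatives the adjusted p-values of the 17 collagen genes named by rule ran from 0.210 to 0.9999. The count at an unadjusted p under 0.05 was 3 with quantile normalization (3.34% of all genes), 1 with median centring (2.63%), 3 without the 6645 dimmest genes (4.27%), 3 under a robust variance fit with a trend (3.77%) and 2 after subtracting 16 (3.76%). It ran from 2 (without Scnn1b-Tg replicate 1, 4.30%) to 10 (without wild type replicate 1, 5.52%) over single arrays left out. Non-overlapping members, a count whose alternatives were chosen after seeing the data, numbered 5 with median centring, 8 (without Scnn1b-Tg replicate 2, 9.88% of all genes) to 15 (without wild type replicate 1, 13.6%) over single arrays left out and 17 without both arrays that stood apart (replicate 2 of wild type, replicate 3 of Scnn1b-Tg), where 19.1% of all genes did. Fewer arrays make non-overlap easier. The median log2 fold change of all members was 0.023 with quantile normalization, 0.025 with median centring and 0.081 without both arrays, and that of the other types was 0.010 with quantile normalization and 0.085 without both. Over single arrays left out the fibrillar median ran from 0.058 (without wild type replicate 2) to 0.15, and the basement membrane median from -0.039 to 0.095 (without wild type replicate 3). Only the genes named by rule were checked for a change of sign, and the other members were not. Among the named genes values changed sign for Col12a1 (-0.24 to 0.096 over single arrays left out). Without both arrays they did for Col4a2 (-0.018), Col4a5 (0.017), Comp (0.0053) and Mrc2 (-0.033). The cause of these shifts was not tested.

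Over all genes 39 were called without the 6645 dimmest genes, 36 with a trend and robust variance, 23 with 16 subtracted, 6 without both arrays, and 0 (without wild type replicate 3) to 5 (without Scnn1b-Tg replicate 3) over single arrays left out. In the first of these fewer genes are tested, and the variances are also fitted on those genes alone. Why the counts differ between settings was not tested. Scnn1b itself had an adjusted p of 0.0559 without wild type replicate 3. Of the pathway and marker lists 2 genes (Chil3 and Itgam) were called in each of the first 3 of these settings. With a replicate block 3 genes were called over all, 1 of them on the lists (Chil3), and 0 collagens. Correlations of same-numbered arrays' deviations from their group means were 0.026, 0.028 and 0.039, each the highest for its arrays. The labels state no batch, and whether same-numbered samples were handled together was not tested. Of the members 30 of 44 averaged under 100, and the lowest values of the arrays were 18.3 to 18.6.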
